A study of Mus musculus with 12 samples.

Results

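Activity-induced synaptic effector genes are transcribed in neurons within minutes to hours of synaptic activity, and many of their products act at synapses or in signalling, beside the transcription factors induced with them. The 10 genes described here were picked by symbol, with earlier results of these data known: Arc, Homer1, Nptx2, Plk2, Ptgs2, Rgs2, Inhba, Gadd45b, Rasgrp1 and Rheb. Each of the 10 symbols matched 1 of the 23893 genes in the count table, and each had a mean of at least 1 CPM, the count scaled to a common library size, as did 13720 genes in all. RNA-seq had been performed on 12 mouse cortical neuron cultures of embryonic day E13.5-15.5, in 4 groups of 3. The study's methods describe all cultures as Top1 fl/fl neurons (strain C57BL6 in the labels) carrying a lentivirus given at day 3 in vitro (DIV 3), whereas the labels call the first genotype wild-type. WT cells received the fluorescent protein tdTomato under the neuronal CaMKIIα promoter, and Top1 cKO cells received tdTomato together with the recombinase CRE, which cuts out the floxed part of Top1. From DIV 15, cells were exposed for 3 days to vehicle (0.003% DMSO; WT-Veh and Top1 cKO-Veh) or to 300 nM topotecan (WT-Topot and Top1 cKO-Topot), a drug that holds topoisomerase 1 (TOP1) on the DNA strand it has cut. Transduction was stated as 85 to 90% of cells, so each culture also held cells without the virus, and each library is an average over a mixed culture. Fewer expressing cells and less RNA per cell cannot be told apart in such libraries.

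In an active neuron, glutamate opens NMDA receptors and voltage-gated calcium channels, and calcium activates kinases and phosphatases that act on transcription factors such as CREB, SRF and MEF2 already bound to promoters. The first genes to respond encode transcription factors of the FOS, EGR and NR4A families and, beside them, effectors. Of the effectors described here, ARC removes AMPA receptors from the synapse, the short form of HOMER1 loosens the link between metabotropic glutamate receptors and their scaffold, and the kinase PLK2 weakens overexcited synapses. NPTX2 is secreted and clusters AMPA receptors, PTGS2 (cyclooxygenase 2) makes the precursor of prostaglandins, and INHBA is the subunit of the secreted factor activin A. RGS2 ends signalling by Gq proteins, RASGRP1 loads RAS with GTP in response to calcium and diacylglycerol, RHEB activates the growth kinase complex mTORC1, and GADD45B acts in stress signalling and DNA demethylation.

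The genes differ in size and position. On the mm9 assembly, Arc covered 3.49 kb (chr15:74499513-74503000, minus strand), Nptx2 11.6 kb (chr5:145306756-145318347, plus), Plk2 5.80 kb (chr13:111185252-111191052, plus), Ptgs2 7.89 kb (chr1:151947254-151955140, plus) and Rgs2 4.82 kb (chr1:145846468-145851291, minus). Gadd45b covered 2.11 kb (chr10:80392836-80394949, plus), Inhba 15.4 kb (chr13:16103684-16119044, plus), Rheb 39.8 kb (chr5:24308641-24348442, minus), Rasgrp1 63.0 kb (chr2:117105729-117168737, minus) and Homer1 101 kb (chr13:94073712-94174917, plus). Homer1 was thus the only gene among the 10 that spans more than 100 kb.

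Promoters of 5 of the genes are shown because they span the responses described below. Ptgs2 was lower in WT-Topot than in every other group. Rgs2 and Rasgrp1 were higher in Top1 cKO cells than in WT cells under topotecan. Homer1 and Plk2 carry the most copies of the cAMP response element core. Under topotecan they differed less between the genotypes than Ptgs2, Rgs2 and Rasgrp1. For topotecan in WT cells, Homer1 did not differ less (log2 fold change −0.77) than Rgs2 (−0.73) or Rasgrp1 (−0.41). The sequences are from RefSeq (GRCm38.p6), run 5′ to 3′ on the strand of the gene, and cover 250 bases before and 30 bases from the start site. Capitals mark TGACG, the core of the cAMP response element to which CREB binds, on either strand (CGTCA on the other); in Plk2 a pair of cores overlaps as the full element TGACGTCA. The windows lie at chr13:93303507-93303786 (Homer1, plus strand), chr13:110394794-110395073 (Plk2, plus), chr1:150099781-150100060 (Ptgs2, plus), chr1:144004120-144004399 (Rgs2, minus) and chr2:117342848-117343127 (Rasgrp1, minus).
Homer1: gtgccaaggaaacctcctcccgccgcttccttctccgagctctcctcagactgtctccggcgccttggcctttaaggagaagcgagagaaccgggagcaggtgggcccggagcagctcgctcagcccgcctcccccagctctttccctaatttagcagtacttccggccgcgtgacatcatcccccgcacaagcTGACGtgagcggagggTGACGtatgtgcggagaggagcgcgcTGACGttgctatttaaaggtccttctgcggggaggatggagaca
Plk2: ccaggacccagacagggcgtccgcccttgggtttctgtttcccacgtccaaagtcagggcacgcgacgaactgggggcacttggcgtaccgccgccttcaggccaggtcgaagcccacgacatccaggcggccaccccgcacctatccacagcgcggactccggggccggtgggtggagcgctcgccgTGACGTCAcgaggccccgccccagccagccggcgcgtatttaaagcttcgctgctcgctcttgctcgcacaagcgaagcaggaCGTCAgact
Ptgs2: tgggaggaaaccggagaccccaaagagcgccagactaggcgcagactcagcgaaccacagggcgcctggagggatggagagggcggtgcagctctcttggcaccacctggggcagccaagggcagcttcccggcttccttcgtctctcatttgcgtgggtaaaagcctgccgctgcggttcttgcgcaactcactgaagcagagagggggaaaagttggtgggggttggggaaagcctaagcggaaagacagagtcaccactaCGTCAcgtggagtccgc
Rgs2: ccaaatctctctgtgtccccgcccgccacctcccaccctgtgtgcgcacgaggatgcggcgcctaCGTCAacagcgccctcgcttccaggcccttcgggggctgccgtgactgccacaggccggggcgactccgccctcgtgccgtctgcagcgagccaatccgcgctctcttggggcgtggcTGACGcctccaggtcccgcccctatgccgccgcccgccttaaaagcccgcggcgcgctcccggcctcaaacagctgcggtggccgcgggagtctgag
Rasgrp1: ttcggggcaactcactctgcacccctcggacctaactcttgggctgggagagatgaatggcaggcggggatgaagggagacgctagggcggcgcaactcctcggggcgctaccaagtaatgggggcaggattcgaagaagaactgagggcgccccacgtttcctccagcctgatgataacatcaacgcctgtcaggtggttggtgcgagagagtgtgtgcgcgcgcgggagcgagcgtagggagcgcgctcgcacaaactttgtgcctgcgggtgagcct
RefSeq gives Homer1 a second start site, whose window held no such core. In the Homer1 window shown, the core was found 3 times, from −56, −40 and −14 relative to the start site, and 2 times in that of Rgs2, from −185 and −67. In the Ptgs2 window it began at base 14 of the transcript, and in Plk2 the full element began at −62, with another core within the transcript. Rheb had a core near the far end of its window, and Rasgrp1, Inhba and Gadd45b had none. Thus 5 of the 9 windows, of 8 genes, held TGACG, against 19.9% of 32851 mouse promoter windows of this length. Plk2 alone held TGACGTCA, which stood in 1.74% of all windows. Arc and Nptx2, both lower in WT-Topot than in WT-Veh, had no window in the promoter set used and are absent from these counts. TATAAA stood in the windows of Inhba and Gadd45b and in 13.1% of all windows. The AP-1 letters TGANTCA were in no window of these genes and in 7.46% of all. These are matches of letters, and no binding was measured.

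Libraries held 1730164 to 4583777 counts on genes, so 3 counts correspond to 0.654 to 1.73 CPM. Top1 itself had 117 to 163.5 CPM in the 6 WT libraries and 27.1 to 44.0 CPM in the 6 Top1 cKO libraries, which do not overlap. The 8 neuron markers summed to 5956 to 7899 CPM over all libraries. The 7 astrocyte markers summed to 1266 to 3276 CPM in WT-Veh and 618 to 1298 CPM in WT-Topot, and to 1305 to 3682 and 624 to 1720 CPM in the Top1 cKO groups with vehicle and topotecan, none of the 7 being at 0. The 6 interneuron markers summed to 768 to 1699 CPM in WT-Veh, 493 to 903 in WT-Topot, and in Top1 cKO cells to 1154 to 1323 with vehicle and 857 to 1228 with topotecan. The part of these other cells in the results was not tested. The 7 microglia markers summed to at most 20.2 CPM in any library.

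To ask whether the effectors respond to topotecan through TOP1, the 4 groups were compared in pairs. In WT cells topotecan lowered the effectors Ptgs2, Nptx2 and Arc, and the log2 fold change was below 0 for all 10 genes. In Top1 cKO cells 8 of the 10 log2 fold changes for topotecan were positive, and no gene passed the test. With vehicle, no gene passed between Top1 cKO and WT cells either, the lowest adjusted p being that of Rasgrp1, which had 1.96 times the WT-Veh level. Under topotecan, Arc, Nptx2, Ptgs2, Rgs2 and Rasgrp1 were all higher in Top1 cKO cells than in WT cells. At a false discovery rate (FDR) of 0.01, 3 of the 10 genes passed as lower in WT-Topot against WT-Veh, where 2.04% of all genes did, and 0 of 10 passed in Top1 cKO-Veh against WT-Veh, where 0.172% of all genes passed in either direction. For topotecan in Top1 cKO cells 0 of 10 passed, at 0.00837% of all genes, while 3 had an unadjusted p below 0.05 and DESeq2 also called 0. In Top1 cKO-Veh against WT-Veh, 2 genes had an unadjusted p below 0.05 and DESeq2 called 1. In Top1 cKO-Topot against WT-Veh 1 gene passed as higher, at 0.473% of all genes. In WT-Topot against Top1 cKO-Veh 5 passed as lower, at 1.23%, and in Top1 cKO-Topot against WT-Topot 5 passed as higher, at 1.46%. These comparisons share groups, so their counts do not stand apart from each other.

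The libraries of WT-Topot did not overlap those of WT-Veh for 7 of the 10 genes, as for 26% of the 13720 genes with at least 1 CPM. For Top1 cKO-Topot against WT-Topot the libraries did not overlap for 9 of 10 genes, against 27.4%, and for WT-Topot against Top1 cKO-Veh for 7, against 24.4%. The corresponding numbers were 3 for deletion with vehicle (19.9%), 3 for Top1 cKO-Topot against WT-Veh (26.5%) and 0 for topotecan in Top1 cKO cells (11.7%). Over the 10 genes, log2 fold changes had a median of −0.75 for topotecan in WT cells and 0.22 for topotecan in Top1 cKO cells. The corresponding medians over the 13720 genes were 0.029 and −0.00033. With the replicate number as a block and low counts filtered out, all 10 genes were kept, and 4 were called lower in WT-Topot against WT-Veh (8.03% of genes), 1 higher for deletion with vehicle (2.79%), 0 for topotecan in Top1 cKO cells (0.243% higher), 2 higher in Top1 cKO-Topot against WT-Veh (4.06%), 7 lower in WT-Topot against Top1 cKO-Veh (8.34%) and 7 higher for deletion under topotecan (8.99%). With the block but no filter the counts were 6 (5% of genes), 2 (2.6%), 3 (0.858%), 3 (3.34%), 8 (4.8%) and 6 (4.6%) in the same order. In this unfiltered fit the spread shared over genes outweighed a gene's own, and it added Arc, Nptx2 and Ptgs2 as higher for topotecan in Top1 cKO cells (adjusted p = 7.8e-08, 6.9e-04 and 0.0040), where the filtered fit gave 0.0567, 0.122 and 0.0464. It also added Rgs2 (6.1e-04) and Rheb (0.0048) in WT-Topot against WT-Veh, Rgs2 for deletion with vehicle (5.3e-06), Arc in Top1 cKO-Topot against WT-Veh (2.4e-04; filtered 0.0368) and Gadd45b in WT-Topot against Top1 cKO-Veh (0.0061; filtered 0.0119). Block values below are of the filtered fit.

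**Figure D1:**
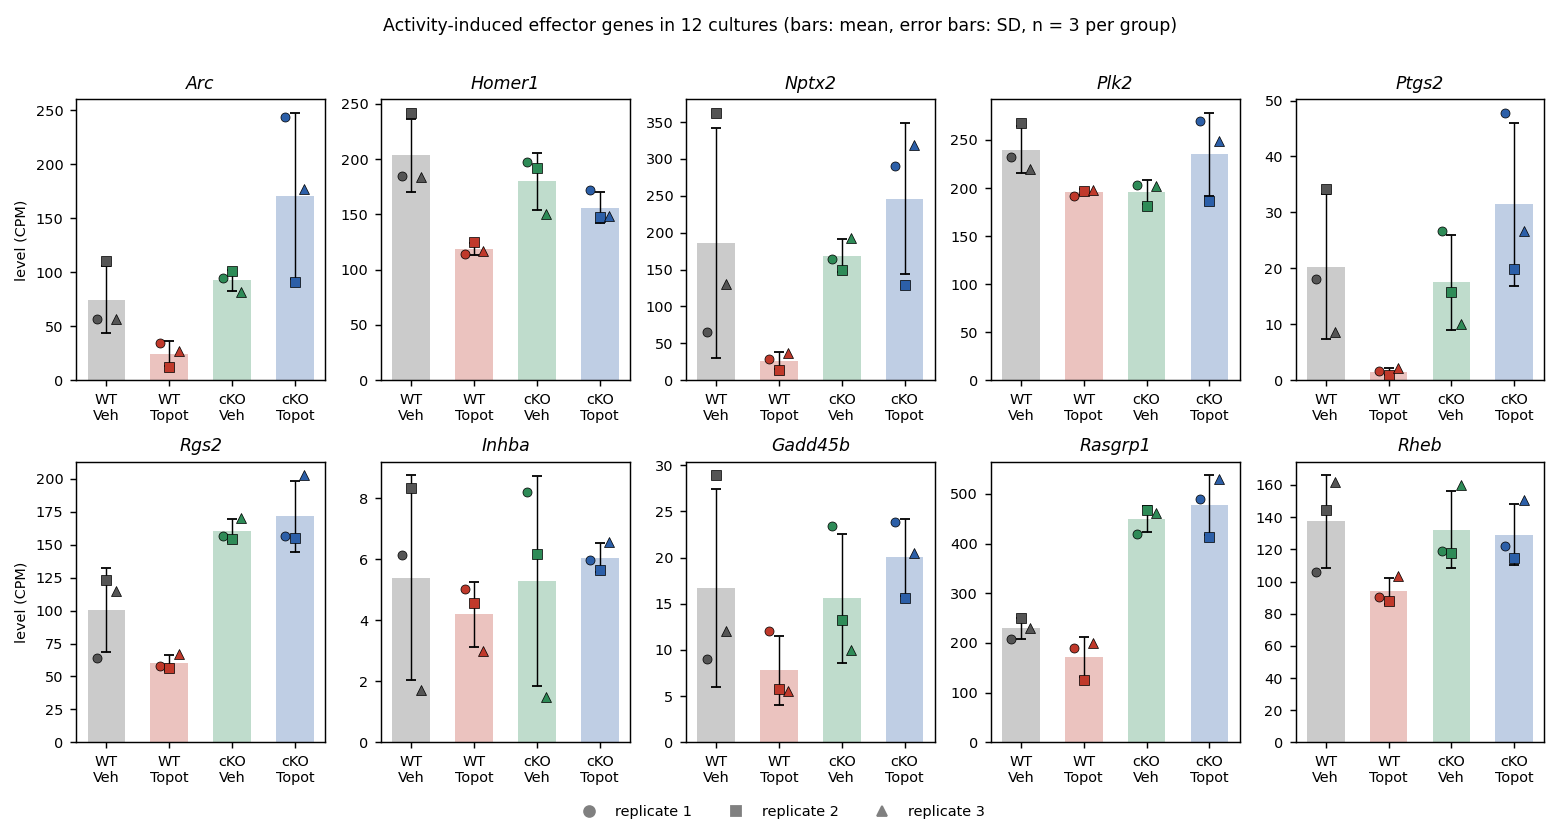
Level of each effector gene in CPM (y axis, from 0) in the 12 cultures, by group (x axis). Bars are means, error bars SD (n = 3), and symbols the replicate numbers. WT-Topot has the lowest mean in 9 of the 10 panels, Plk2 being the exception, and Rasgrp1 and Rgs2 are higher in the Top1 cKO groups than in the WT groups.

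Arc, Homer1 and Plk2 act at the postsynaptic side. Arc, which drives the uptake of AMPA receptors, had 56.8, 110.4 and 57.02 CPM in WT-Veh (replicates 1, 2 and 3) and 34.2, 12.02 and 27.4 CPM in WT-Topot. The levels were 94.2, 101.2 and 82.2 CPM in Top1 cKO-Veh and 244.2, 91.0 and 177.5 CPM in Top1 cKO-Topot. All WT-Topot libraries were below all others, while the other groups overlapped one another. Arc was 3.06-fold lower in WT-Topot than in WT-Veh (log2 fold change −1.61 ± 0.33, SE; adjusted p = 0.00431). This call was lost without WT-Veh replicate 2 (log2 fold change −1.22, adjusted p = 0.0194), without WT-Topot replicate 2 (−1.27, 0.0108) and when low counts were filtered (0.0236), and it held in 11 of 16 alternatives. The highest adjusted p was 0.127, with the block, the filter and a robust estimate of the spread. Against Top1 cKO-Veh, WT-Topot was 3.81-fold lower (adjusted p = 7.1e-04), and Top1 cKO-Topot was 6.98-fold above WT-Topot (log2 fold change 2.80 ± 0.31, adjusted p = 4.85e-06). Both calls held in all 16 alternatives. In Top1 cKO cells topotecan went with a log2 fold change of 0.89 ± 0.26, which did not pass (adjusted p = 0.508; with the block 0.0567).

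Homer1, a scaffold of the postsynaptic density, had 184.6, 241.9 and 184.3 CPM in WT-Veh and 113.9, 125.1 and 116.9 CPM in WT-Topot. It had 197.5, 192.4 and 150.3 CPM in Top1 cKO-Veh and 172.5, 147.8 and 148.2 CPM in Top1 cKO-Topot. WT-Topot again lay below every other library, but at 1.71-fold below WT-Veh (log2 fold change −0.77 ± 0.18) the difference had an adjusted p of 0.0151, and it passed in 8 of 16 alternatives, among them the block (adjusted p = 7.6e-04) and DESeq2 (9.5e-04). Against Top1 cKO-Veh the adjusted p was 0.0668 and with the block 0.0019. The count table gives 1 value per symbol, so the short activity-induced form of Homer1 and the long forms were counted together.

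Plk2, whose kinase acts on spine proteins after prolonged activity, had the smallest maximum: none of its log2 fold changes between groups exceeded 0.30 in size. Its levels were 232.6, 267.4 and 220.0 CPM in WT-Veh, 192.0, 197.2 and 197.4 in WT-Topot, and in Top1 cKO cells 203.0, 180.9 and 202.4 with vehicle and 269.3, 186.3 and 249.2 with topotecan. Top1 cKO-Topot overlapped every other group. The largest of its log2 fold changes between 2 groups was −0.30 ± 0.17, for Top1 cKO-Veh against WT-Veh (adjusted p = 0.743). The means of WT-Topot and Top1 cKO-Veh were 195.6 and 195.4 CPM.

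Nptx2 and Ptgs2 had the largest log2 fold changes of the 10 genes in the comparisons with WT-Topot, and not in the others. Nptx2, which gathers AMPA receptors at excitatory synapses, had 65.0, 362.5 and 130.2 CPM in WT-Veh and 28.1, 14.0 and 37.3 CPM in WT-Topot. In Top1 cKO-Veh it had 163.9, 150.0 and 193.4 CPM and in Top1 cKO-Topot 290.4, 129.2 and 318.7 CPM. Vehicle-treated WT cultures spread more than the Top1 cKO-Veh cultures (SD 156 against 22.2 CPM), and WT-Topot stayed below them all. Nptx2 was 7.10-fold lower in WT-Topot than in WT-Veh (log2 fold change −2.83 ± 0.45, adjusted p = 4.4e-04), but with low counts filtered the adjusted p was 0.0122, and 0.199 with the block and a robust estimate of the spread as well. WT-Topot was 6.45-fold below Top1 cKO-Veh (adjusted p = 2.7e-05) and Top1 cKO-Topot 9.36-fold above WT-Topot (log2 fold change 3.23 ± 0.30, adjusted p = 5.2e-07), both in all 16 alternatives. Without WT-Veh replicate 2, the log2 fold change of Top1 cKO-Veh over WT-Veh went from −0.14 to 0.80 (adjusted p = 0.331).

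Ptgs2, the inducible cyclooxygenase, had 18.1, 34.2 and 8.6 CPM in WT-Veh and 1.7, 0.9 and 2.1 CPM in WT-Topot, the latter from 5, 3 and 5 counts. Top1 cKO-Veh had 26.6, 15.8 and 10.02 CPM and Top1 cKO-Topot 47.8, 19.9 and 26.7 CPM. Every WT-Topot library was below every other library. The fitted log2 fold change of WT-Topot over WT-Veh was −3.73 ± 0.52 (adjusted p = 1.0e-04), and this call held in all 16 alternatives. From the summed counts, the level in WT-Veh was 14.1 times that in WT-Topot (95% interval 8.02 to 27.1, counting error only). Likewise Top1 cKO-Topot stood 20.9 times above WT-Topot (12.004 to 39.9; adjusted p of the fit 9.3e-07). In Top1 cKO cells the log2 fold change for topotecan was 0.85 ± 0.36 (adjusted p = 1).

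Inhba was the scarcest of the 10 genes in WT-Veh, and no comparison of it passed. It had 6.1, 8.3 and 1.7 CPM in WT-Veh, 5.0, 4.6 and 3.0 in WT-Topot, and in Top1 cKO cells 8.2, 6.2 and 1.5 with vehicle and 6.0, 5.6 and 6.6 with topotecan. Replicate 3 was the lowest of its group in all groups but Top1 cKO-Topot. Only the drug-treated groups did not overlap, at a log2 fold change of 0.50 ± 0.43 for deletion (adjusted p = 0.808). The standard errors of Inhba were 0.43 to 0.57 on the log2 scale between pairs of groups.

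**Figure D2:**
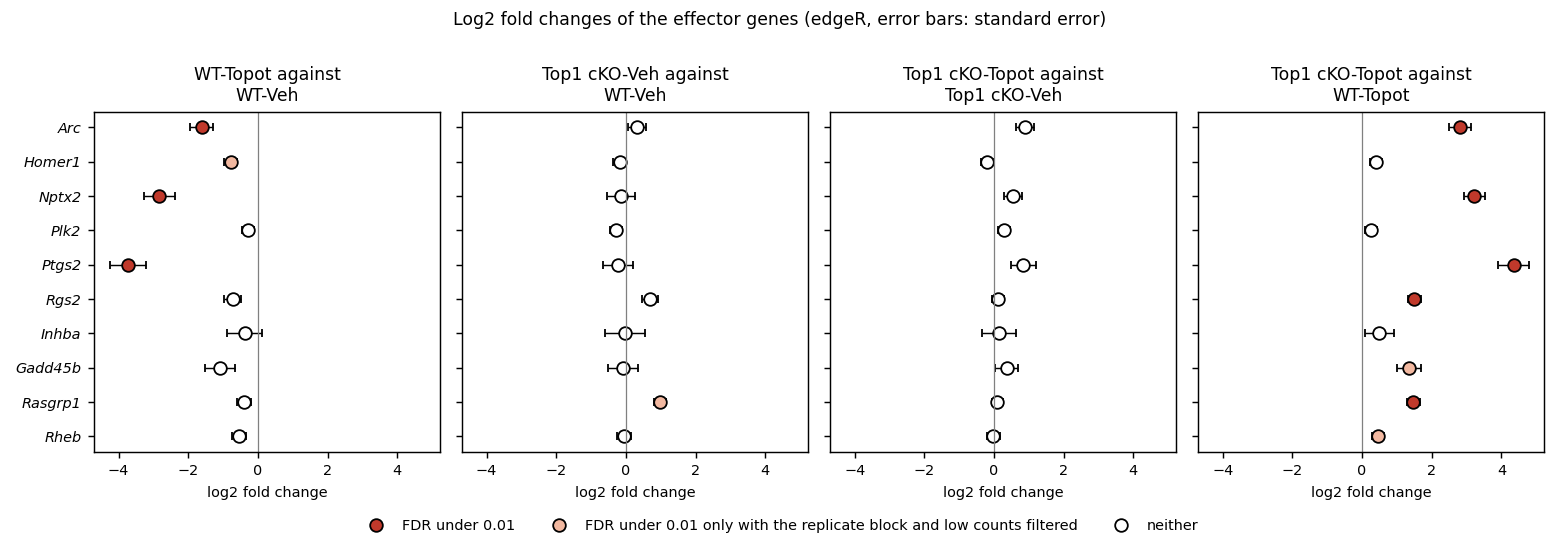
Log2 fold change of each effector gene (x axis) with its standard error for 4 comparisons (panels), from edgeR. Filled points passed an FDR of 0.01, pale points only with the replicate block and low counts filtered. Arc, Nptx2 and Ptgs2 lie at −1.61 to −3.73 for topotecan in WT cells and at 2.80 to 4.35 for deletion under topotecan.

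Rgs2 and Rasgrp1, which work inside the cell on G protein and RAS signals, had higher mean levels in Top1 cKO than in WT cells, a difference that passed under topotecan for both genes and with vehicle for neither. Rgs2 had 64.1, 123.2 and 114.6 CPM in WT-Veh and 58.0, 56.1 and 67.2 CPM in WT-Topot. It had 156.8, 154.6 and 170.4 CPM in Top1 cKO-Veh and 156.9, 155.4 and 202.8 CPM in Top1 cKO-Topot. Each Top1 cKO library was above each WT library. The log2 fold change for deletion in vehicle was 0.68 ± 0.23 (adjusted p = 0.264; with the block 0.0109). Under topotecan it was 1.501 ± 0.18, or 2.83-fold (adjusted p = 1.8e-05). For topotecan in WT cells it was −0.73 ± 0.23 (adjusted p = 0.0977; with the block 0.0170). The drug shifted Rgs2 by 0.11 ± 0.17 in Top1 cKO cells (adjusted p = 1).

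Rasgrp1 had 207.7, 249.4 and 230.9 CPM in WT-Veh, 190.0, 125.1 and 200.4 in WT-Topot, and in Top1 cKO cells 419.2, 467.4 and 461.0 with vehicle and 489.9, 412.8 and 530.7 with topotecan. The lowest Top1 cKO library was above the highest WT library by more than the whole range of the WT-Veh group. Deletion in vehicle gave a log2 fold change of 0.97 ± 0.17, with an adjusted p of 0.0123 and, with the block, of 6.6e-05. It passed in 8 of 16 alternatives. Deletion together with topotecan, against WT-Veh, gave 1.08 ± 0.18, or 2.12-fold (adjusted p = 7.0e-04), and this call held in all 16. Under topotecan the Top1 cKO cells had 2.77 times the level of WT cells (log2 fold change 1.47 ± 0.18, adjusted p = 2.2e-05). Topotecan itself gave −0.41 ± 0.20 in WT cells (adjusted p = 0.396) and 0.10 ± 0.15 in Top1 cKO cells (adjusted p = 1).

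Rheb, the small GTPase upstream of mTORC1, had 105.6, 144.6 and 161.8 CPM in WT-Veh and 90.5, 88.2 and 103.6 CPM in WT-Topot. The Top1 cKO groups had 118.9, 117.9 and 159.8 CPM with vehicle and 122.3, 114.6 and 150.4 CPM with topotecan. WT-Topot was the lowest group without overlap, by a log2 fold change of −0.54 ± 0.20 against WT-Veh that did not pass (adjusted p = 0.182; with the block 0.0156). It did not pass against Top1 cKO-Veh (adjusted p = 0.209; with the block 0.0062) or Top1 cKO-Topot (0.194; with the block 0.00771, and 0.0114 with the block and no filter), where 3 and 2 of 16 alternatives called it. Gadd45b, the stress and demethylation factor gene, had 9.1, 28.9 and 12.1 CPM in WT-Veh, 12.1, 5.7 and 5.6 in WT-Topot, and in Top1 cKO cells 23.5, 13.3 and 10.02 with vehicle and 23.9, 15.6 and 20.5 with topotecan. Only the drug-treated groups were separated: Top1 cKO-Topot was 2.53-fold above WT-Topot (log2 fold change 1.34 ± 0.34), with an adjusted p of 0.0204 and, with the block, of 0.00119.

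Whether the effect of topotecan depended on Top1 was tested as an interaction over the 12 libraries. The interaction was positive for all 10 genes, with a median of 0.70 against −0.026 over the 13720 genes. The 10 values rest on the same libraries, so their common sign is not 10 separate results. The interaction passed for Ptgs2 (4.58 ± 0.71 on the log2 scale, adjusted p = 0.00175) and Nptx2 (3.37 ± 0.63, adjusted p = 0.00786), where 0.398% of all genes passed in that direction. Arc was just outside the threshold (2.50 ± 0.48, adjusted p = 0.01003). With the block 3 genes passed (3.81% of genes), Arc among them (adjusted p = 0.00264), and 4 without the filter (2.44%). The Ptgs2 call held in all 20 alternatives, that of Nptx2 in 11 and Arc passed in 9. The remaining 7 genes had interactions of 0.51 to 1.43, and of these only Rgs2 passed in any alternative, the block without a filter (adjusted p = 0.0079).

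Over all genes with at least 1 CPM, cultures with the same replicate number deviated together, but in the members replicate 2 took no common side. WT-Veh replicate 2 was the highest of its group for 9 of the 10 genes, and Top1 cKO-Topot replicate 2 was the lowest of its group for all 10. WT-Topot replicate 2 was the lowest for 6 genes, and Top1 cKO-Veh replicate 2 the lowest for 4 and the highest for 2. Per number, the log2 ratio of topotecan to vehicle in WT cells (CPM + 1) was −0.72, −3.10 and −1.03 for Arc, −1.18, −4.60 and −1.78 for Nptx2 and −2.84, −4.24 and −1.62 for Ptgs2, so that replicate 2 had the strongest fall of each. In Top1 cKO cells the same ratios were 1.36, −0.15 and 1.10 for Arc, 0.82, −0.21 and 0.72 for Nptx2 and 0.82, 0.32 and 1.33 for Ptgs2. Replicate 2 thus gave the lowest ratio of both genotypes in all of these genes. Comparing the genotypes under topotecan within a number left less spread in these genes other than Ptgs2: the log2 ratio of Top1 cKO to WT was 2.80, 2.82 and 2.65 for Arc, 3.32, 3.12 and 3.06 for Nptx2, 1.42, 1.45 and 1.58 for Rgs2 and 4.19, 3.49 and 3.14 for Ptgs2. For Rasgrp1 the ratio of Top1 cKO to WT with vehicle was 1.01, 0.90 and 0.99.

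**Figure D3:**
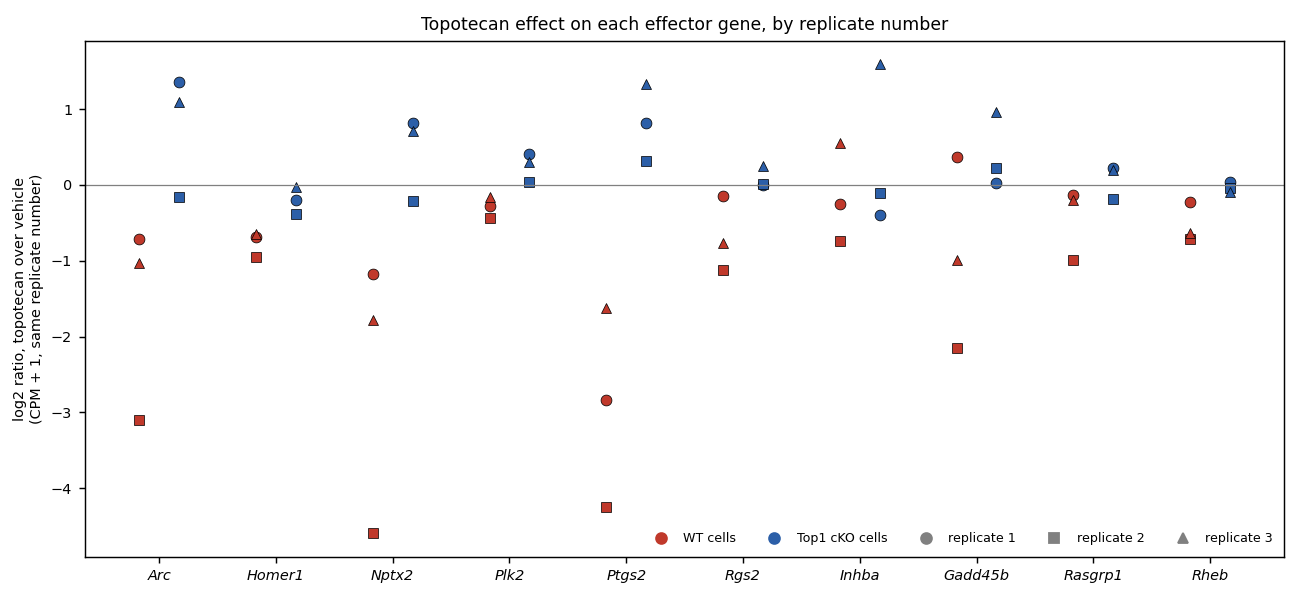
Log2 ratio of topotecan to vehicle (y axis, CPM + 1) between cultures with the same replicate number, for each effector gene (x axis). Red symbols are WT and blue symbols Top1 cKO cells, and symbol shapes are the replicate numbers. In WT cells the ratios are negative for all 3 numbers in 8 of the 10 genes, Inhba and Gadd45b being the exceptions, and replicate 2 gives −3.10 for Arc and −4.60 for Nptx2.

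Levels of different genes were compared per kb of exon. In WT-Veh, Plk2 was the most abundant (85.6 ± 8.75 CPM per kb, SD, n = 3), followed by Nptx2 (72.9 ± 61.3), Rasgrp1 (41.0 ± 3.73), Rgs2 (27.7 ± 8.80), Rheb (24.8 ± 5.20), Arc (24.4 ± 10.1), Homer1 (18.0 ± 2.93), Gadd45b (13.2 ± 8.45), Ptgs2 (4.91 ± 3.12) and Inhba (2.73 ± 1.698). Among neighbours in this order, only Rasgrp1 and Rgs2 had libraries that did not overlap. In WT-Topot, Nptx2 stood sixth at 10.4 ± 4.59 and Ptgs2 last at 0.376 ± 0.157 CPM per kb. Rasgrp1 led in Top1 cKO-Veh with 80.2 ± 4.67, above Plk2 without overlap, and Nptx2 led in Top1 cKO-Topot with 96.5 ± 40.1 CPM per kb, where it overlapped Rasgrp1 and Plk2.

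The transcription factors and other effectors that neuronal activity induces were set beside the 10 genes. Of 16 activity-induced transcription factors, 9 were lower in WT-Topot than in WT-Veh, where 2.04% of all genes were, led by Npas4 (log2 fold change −3.58 ± 0.49), Nr4a1 (−3.37 ± 0.33), Fosb (−3.12 ± 0.42) and Fos (−2.86 ± 0.34). Their median was −1.46. Of 22 other effectors, 11 were lower (2.04% of all genes) with a median of −1.08, among them the neurotrophin gene Bdnf (−3.38 ± 0.31), the sorting receptor gene Sorcs3 (−3.33 ± 0.43) and the secretory granule genes Vgf (−2.93 ± 0.28) and Scg2 (−2.27 ± 0.29). No gene of either list passed for deletion with vehicle or for topotecan in Top1 cKO cells, where the medians were −0.28 and 0.50 for the transcription factors and −0.33 and 0.11 for the effectors. For deletion with vehicle, the block without a filter called 6 effectors lower (Bdnf, Vgf, Scg2 and Sorcs3 among them) and 2 higher, and 2 factors lower and 1 higher, against 2.95% of all genes lower and 2.6% higher. For topotecan in Top1 cKO cells it called 2 effectors and 5 factors higher, against 0.858%. Bdnf, for instance, had means of 282.4 CPM in WT-Veh, 26.9 in WT-Topot, and in Top1 cKO cells 127.3 with vehicle and 161.7 with topotecan. In the comparison of Top1 cKO-Topot against WT-Topot, 10 of the 16 factors and 11 of the 22 effectors passed as higher, where 1.46% of all genes did.

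**Figure D4:**
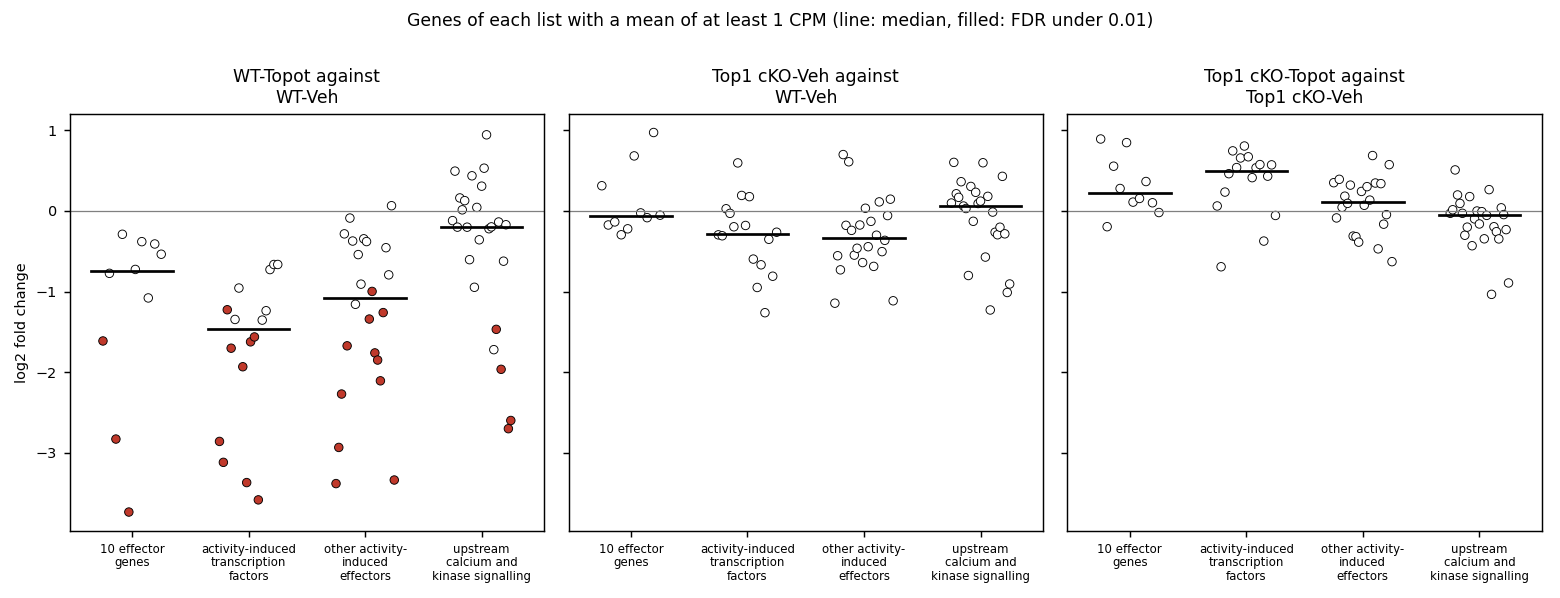
Log2 fold change (y axis) of the 10 effector genes and of 3 lists of related genes (x axis) in 3 comparisons (panels). Each point is a gene with a mean of at least 1 CPM, filled where it passed an FDR of 0.01, and the line is the median of the list. For topotecan in WT cells the medians are −0.75, −1.46, −1.08 and −0.20 from left to right.

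Upstream of these genes, 4 of 25 genes of calcium and kinase signalling were lower in WT-Topot than in WT-Veh, where 2.04% of all genes were. These 4 were the NMDA receptor subunit genes Grin2a (−2.70 ± 0.39 on the log2 scale) and Grin2b (−2.60 ± 0.35), the calcium channel gene Cacna1c (−1.96 ± 0.30) and the calcineurin gene Ppp3ca (−1.47 ± 0.21). In Top1 cKO-Topot against WT-Veh, Grin2b (−1.79 ± 0.23) and Mef2c (−0.99 ± 0.16) passed as lower, whereas Grin2a, Cacna1c and Ppp3ca did not. Against Top1 cKO-Veh, where 1.23% of all genes were lower, WT-Topot was lower in Cacna1c, Ppp3ca and Camk4 and higher in the kinase gene Mapk3 (1.51 ± 0.19).

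Partners of the members were also counted, beside the 2.04% of all genes lower in WT-Topot than in WT-Veh. Of 9 genes whose products work with ARC, the AMPA receptor subunit gene Gria1 (−1.31 ± 0.21) and the endocytosis gene Dnm3 (−0.96 ± 0.20) were lower in WT-Topot than in WT-Veh. From WT-Topot to Top1 cKO-Topot both rose (1.13 ± 0.18 and 1.13 ± 0.20), whereas Wasf1 of the same list fell (−1.07 ± 0.17). In that comparison 6 of the 9 log2 fold changes were negative, with a median of −0.074 against −0.021 over all genes with at least 1 CPM. Of 9 partners of HOMER1, Grm5, the metabotropic glutamate receptor it binds, was lower than in WT-Veh in WT-Topot (−2.29 ± 0.22), and in Top1 cKO cells with vehicle (−1.26 ± 0.20) and topotecan (−2.58 ± 0.23), whereas Homer1 did not pass in these comparisons. Itpr1, the calcium release channel gene, was lower in WT-Topot (−1.05 ± 0.23). Of 4 NPTX2 partners, Gria4 (−1.98 ± 0.28) and Gria1 were lower in WT-Topot. Among 7 relatives and substrates of PLK2, Plk3 was lower (−2.03 ± 0.40). In the 7 genes of Gq signalling and RGS relatives, Plcb1 (−2.96 ± 0.23) and Rgs4 (−0.998 ± 0.18) were lower. Rptor, a subunit of mTORC1, was the gene lower among 16 of the RAS and mTORC1 list (−0.999 ± 0.21). Tet1, a DNA demethylation enzyme gene, was higher among the 7 genes listed as GADD45 relatives or for DNA demethylation (1.18 ± 0.19). None of 11 prostaglandin genes and none of 12 activin genes passed in WT-Topot against WT-Veh by this test. Of the members beside these lists, Ptgs2 passed there and Inhba did not. In Top1 cKO-Topot against WT-Veh, Gria4 (−1.47 ± 0.25) and Plcb1 (−1.94 ± 0.18) passed as lower too, whereas Gria1 and Rgs4 did not.

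Over the 12 libraries the log2(CPM + 1) of Arc was most like that of Nptx2 (Pearson's r = 0.938) and Ptgs2 (0.929) among the members, and Rgs2 was most like Rasgrp1 (0.936). The lowest correlation was between Inhba and Rheb (−0.304). With group means removed, the correlation was 0.802 between Arc and Nptx2 and 0.519 between Rgs2 and Rasgrp1, and the closest member was Rasgrp1 for Arc (0.821) and Rheb for Rgs2 (0.854). Among 9498 genes with at least 10 CPM, the 5 closest to Arc were Egr1 (0.963), Trib1 (0.960), Spry2 (0.951), Egr4 (0.948) and Dusp3 (0.924). Those closest to the mean profile of the 10 genes were Spry2 (0.980), Egr1 (0.966), Ppp1r16b (0.959), Dusp3 (0.956) and Trib1 (0.954). All points share the same libraries and groups, so these correlations describe likeness only. Egr1, an activity-induced transcription factor gene, had means of 226.6 CPM in WT-Veh and 69.7 in WT-Topot, and of 221.9 and 303.4 CPM in Top1 cKO cells with vehicle and topotecan.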

How the data were processed

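The authors sequenced polyA RNA libraries, removed artefact reads with TagDust and rRNA reads, and used TopHat for alignment to mm9. The deposited values are raw counts over RefSeq exons per gene symbol. The counting program and its use of strand are not given in the sources used here. Groups came from the sample titles. Counts were scaled by TMM, and groups compared in pairs (6 libraries a fit, all genes) with the quasi-likelihood test of edgeR 4.0.16 in R 4.3.3, with Benjamini-Hochberg adjustment over 23893 genes and an FDR of 0.01. The interaction was fitted on 12 libraries. CPM are on TMM-scaled library sizes, with mean ± SD over 3 cultures. Fits were tested on simulated data. Alternatives were DESeq2 1.42.0, edgeR's exact test, other scalings, a filter (filterByExpr), 1 fit of all libraries, left-out libraries and the replicate number as a block. Blocks with the filter and robust fits were added after the data were seen. Labels do not say what a replicate number stands for, nor that cultures came from separate animals. The p-values thus measure the spread between these cultures, moderated toward a spread shared over genes. Over 13720 genes, deviations from group means correlated by 0.261 to 0.485 in the 18 same-number pairs and −0.384 to −0.0494 in the 36 others, so the numbers were taken as pairs. Within groups, no libraries were repeats (dispersion index 6.44 to 10.9, n = 12 pairs), and pairs between groups were not examined. The 10 genes, the gene lists and the tests were chosen with earlier results of these data known. Named were the members, Top1, up to 4 called genes a list and comparison with the largest change, and the 5 genes most like Arc and the mean profile. Gene positions are from GENCODE vM1, promoters from RefSeq.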

Additional observations from a re-analysis of the deposited data

Results flagged for a closer look

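The effect of topotecan differed between the genotypes, by the interaction term of edgeR over 12 libraries, for 2 of the effector genes. For Ptgs2 the log2 fold change for topotecan in Top1 cKO cells minus that in WT cells was 4.58 (adjusted p = 0.00175). All 3 WT-Topot libraries lay below all WT-Veh libraries, and in Top1 cKO cells all 3 ratios within a replicate number were positive. For Nptx2 the difference was 3.37 (adjusted p = 0.00786), and it was lost in 9 of 20 alternatives, with 2.43 (adjusted p = 0.0142) without WT-Veh replicate 2.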

How the results depend on the processing

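Over 70 gene results, 1160 alternatives gave 1052 unchanged calls, 17 lost, 57 gained and 34 changes of sign, none of a called gene or with an adjusted p below the threshold. Of the 116 alternative counts of members called, 86 were within 1.5 times the first value. The replicate block over all genes gave 6 (topotecan in WT cells), 2 (deletion with vehicle), 3 (topotecan in Top1 cKO cells), 3 (Top1 cKO-Topot against WT-Veh), 8 (WT-Topot against Top1 cKO-Veh), 6 (deletion under topotecan) and 4 (interaction). That fit had 2 residual degrees of freedom (6 for the interaction) and at least 36.2 prior ones, against 11.7 to 20.5 without the block, so a gene's own spread counted for little. Without the block the residual ones were 4 (8 for the interaction), so there too the spread shared over genes had the larger weight. With block and filter the counts were 4, 1, 0, 2, 7, 7 and 3 in the same order, and with a robust fit as well 2, 1, 0, 2, 7, 7 and 1. The filter alone, robust or not, gave 1 for topotecan in WT cells and 1 for the interaction (Ptgs2 both times). For deletion with vehicle the exact test, DESeq2, total counts and 1 fit of all 12 libraries each gave 1 (Rasgrp1). Where no reason is given, the cause was not tested. DESeq2 gave no adjusted p for Inhba in 2 results.

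Leaving out a library gave counts of 2 to 5 for topotecan in WT cells (5 without WT-Veh replicate 1), 0 to 1 for deletion with vehicle (1 without Top1 cKO-Veh replicate 1), 0 for topotecan in Top1 cKO cells, 1 to 3 for Top1 cKO-Topot against WT-Veh (3 without WT-Veh replicate 3, 2 without replicate 2 of either group or Top1 cKO-Topot replicate 3), 5 to 6 for both comparisons of WT-Topot with Top1 cKO cells, and 1 to 3 for the interaction (1 without replicate 2 of any group but Top1 cKO-Topot, or without replicate 1 or 3 of that group). A group left with 2 libraries shared the spread of the other.

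Signs changed for Nptx2 for deletion with vehicle (0.15 with the replicate block, 0.14 with the block and the filter, robust or not) and for Plk2 in WT-Topot against Top1 cKO-Veh (−0.0066 by DESeq2, −0.0075 with RLE factors, −0.0055 with the filter, −0.0026 with block and filter, robust or not). Left-out libraries moved log2 fold changes across 0 for deletion with vehicle in Nptx2 (−0.55 to 0.80), Ptgs2 (−0.64 to 0.35), Gadd45b (−0.49 to 0.59), Inhba (−0.41 to 0.37) and Rheb (−0.22 to 0.080). In Top1 cKO-Topot against WT-Veh they did so for Plk2 (−0.13 to 0.11), Gadd45b (−0.048 to 0.96), Inhba (−0.22 to 0.52) and Rheb (−0.23 to 0.066), for topotecan in Top1 cKO cells for Rgs2 (−0.028 to 0.18), Inhba (−0.22 to 0.53) and Rheb (−0.14 to 0.13), and in WT-Topot against Top1 cKO-Veh for Plk2 (−0.043 to 0.035) and Inhba (−0.75 to 0.0060). For Inhba with topotecan in WT cells the range was −0.74 to 0.00068.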
